A study of Mus musculus with 2 samples.

Results

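Enzymes that modify drugs, dietary chemicals and bacterial metabolites were compared between pooled colon RNA of mice carrying a transgene for the type 2 cytokine interleukin-9 (IL-9) and pooled colon RNA of wild-type mice. The genes were chosen by name: cytochromes P450 (Cyp followed by a digit, without the sterol synthesis gene Cyp51), cytosolic and related glutathione transferases (Gsta, Gstk, Gstm, Gsto, Gstp and Gstt), UDP-glucuronosyltransferases (Ugt) and sulfotransferases (Sult), each read by a probe set that the platform annotation assigns to exactly 1 gene symbol. That rule took 123 of the 20380 single-symbol probe sets and 99 of the 12393 genes they cover. The IL-9 transgenic group, titled Tg5, was 1 array of RNA from a piece of distal colon pooled from 4 mice, and the wild-type group, of the FVB strain, was 1 array prepared the same way from another 4 mice. Mice of both groups were kept free of specific pathogens. The promoter that drives the transgene, the strain background of Tg5, and the age and sex of the mice are not given in the sources used here.

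These enzymes work in sequence. Cytochromes P450 are haem enzymes of the endoplasmic reticulum and mitochondria that insert oxygen into a substrate, which is called phase I metabolism. Transferases then attach glutathione, glucuronic acid or sulfate to the product, which is called phase II, and efflux pumps export the conjugate. Liver holds most of the body's capacity, and the intestinal epithelium is the first tissue to meet swallowed compounds. Many P450 genes are also named in this family although they act on the body's own fatty acids, sterols, steroids and vitamins.

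Each probe set has 1 MAS5 intensity per array. Dim values were set to a floor of 19.8 (the 40th percentile of both arrays together) before log2 ratios, transgenic over wild type, were computed. A gene is called measured when either array exceeded that floor, and its ratio is a bound when the other array did not. With 1 array per group there is no spread between replicates, so no test was run and every ratio describes these 2 pools. The 2 arrays were alike in brightness, with a median intensity of 34.2 in the transgenic pool and 34.0 in the wild-type pool, and Il9 itself read 862 in the transgenic pool and 5.14, below the floor, in the wild-type pool. All 13 pancreatic acinar markers on the array were dimmer by 2-fold or more in the transgenic pool, with a summed intensity of 1683 in the transgenic pool and 30033 in the wild-type pool. Whether pancreatic RNA in the wild-type pool bears on any enzyme ratio below was not tested, and in whole tissue the number of cells of a type and the RNA per cell cannot be told apart.

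Most enzymes had ratios near 0. Of the 99 genes 45 were measured and 54 were below the floor on both arrays. None of the 45 (0) was 2-fold or more above its wild-type value in the transgenic pool, and 2 were 2-fold or more below it. The lower genes were Cyp1a1, which oxidises polycyclic aromatic hydrocarbons, and Gstm2, a glutathione transferase. They are 4.44% of the measured enzymes, while among all 8346 measured genes 0.611% were lower and 0.767% higher by that much. Past a smaller difference, 0.58 on the log2 scale or about 1.5-fold, 4 enzymes were higher (8.89%) and 5 lower (11.1%), against 4.21% higher and 2.91% lower over all measured genes. The higher genes were Cyp4f16, Cyp2d9, Cyp4f13 and Cyp2d26, and the lower genes were Cyp1a1, Gstm2, Cyp2e1, Cyp2j6 and Sult1d1. Cyp4f16 and Sult1d1 did not pass 0.58 as means of their probe sets (0.40 and −0.48), and with a floor at the 60th percentile Cyp2d26 and Cyp4f13 did not (0.30 and 0.39) and Cyp1a1 and Cyp2j6 were not measured. The median log2 ratio was −0.04 over the 45 enzymes and 0.04 over all measured genes, and 26 of the 45 ratios were negative (57.8%, against 44.0% over all measured genes). No call here has a replicate check.

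The start sites of the genes that these counts turn on are shown first: both genes past 2-fold, Gstm1 as the chromosomal neighbour of Gstm2, and the Cyp4f pair that was higher in the transgenic pool. Each window runs from 250 bases before to 50 bases after the annotated start, 5′ to 3′ along the gene, from RefSeq on GRCm38.p6. Capitals mark matches on either strand to GCGTG (the core bound by the aryl hydrocarbon receptor, AhR), TGACNNNGC (the antioxidant response element core bound by NRF2), TATAAA and CCAAT, with GCGTG reading CACGC and CCAAT reading ATTGG when the match is on the other strand. Gstm1 has 2 annotated starts and the downstream one is shown.

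Cyp1a1 (chr9:57697363-57697662, plus strand): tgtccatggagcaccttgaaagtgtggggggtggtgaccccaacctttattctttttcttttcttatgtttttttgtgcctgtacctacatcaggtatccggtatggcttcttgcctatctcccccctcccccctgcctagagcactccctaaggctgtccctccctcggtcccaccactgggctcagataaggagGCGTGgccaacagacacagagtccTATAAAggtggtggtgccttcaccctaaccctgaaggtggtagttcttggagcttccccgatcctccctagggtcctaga
Gstm2 (chr3:107986371-107986670, minus strand): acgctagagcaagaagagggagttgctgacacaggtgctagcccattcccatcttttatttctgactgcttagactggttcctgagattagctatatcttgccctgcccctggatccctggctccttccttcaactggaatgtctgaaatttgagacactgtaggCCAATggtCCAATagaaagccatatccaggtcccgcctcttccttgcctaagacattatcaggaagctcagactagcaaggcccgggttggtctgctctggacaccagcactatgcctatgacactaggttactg
Gstm1 (chr3:108017769-108018068, minus strand): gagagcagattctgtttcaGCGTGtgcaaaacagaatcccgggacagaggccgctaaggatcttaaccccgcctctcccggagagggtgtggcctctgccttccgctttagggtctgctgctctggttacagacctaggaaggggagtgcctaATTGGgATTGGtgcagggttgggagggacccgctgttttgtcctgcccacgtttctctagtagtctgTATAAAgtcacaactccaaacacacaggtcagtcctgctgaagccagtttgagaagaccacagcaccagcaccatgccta
Cyp4f16 (chr17:32536307-32536606, plus strand): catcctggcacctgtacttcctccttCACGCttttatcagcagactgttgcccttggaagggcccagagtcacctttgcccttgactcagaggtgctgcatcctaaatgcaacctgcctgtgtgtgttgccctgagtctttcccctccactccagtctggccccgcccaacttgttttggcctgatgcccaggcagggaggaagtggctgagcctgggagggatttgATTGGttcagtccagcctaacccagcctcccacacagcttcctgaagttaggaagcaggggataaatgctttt
Cyp4f13 (chr17:32947312-32947611, minus strand): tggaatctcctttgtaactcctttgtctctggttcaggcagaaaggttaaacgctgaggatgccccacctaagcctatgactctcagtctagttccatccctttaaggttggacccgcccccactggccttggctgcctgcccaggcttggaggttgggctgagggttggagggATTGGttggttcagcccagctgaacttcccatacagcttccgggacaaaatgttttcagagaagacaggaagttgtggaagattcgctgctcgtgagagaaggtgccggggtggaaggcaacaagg

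The Cyp1a1 window holds 1 GCGTG match at position −54 and a TATAAA match at −30, counted to the first base of the match with no position 0. The Gstm1 window holds TATAAA at −30, GCGTG at −231 and CCAAT on the other strand at −97 and −91. The Gstm2 window has no TATAAA and holds CCAAT at −85 and −77. Cyp4f16 and Cyp4f13 both hold CCAAT on the other strand, at −23 and −76, and Cyp4f16 has a GCGTG match on the other strand at −224. None of these 5 windows holds TGACNNNGC. RefSeq windows were found for 77 of the 99 genes (92 windows). GCGTG occurred in 23.9% of the enzyme windows and 32.4% of all 32851 windows, TGACNNNGC in 8.70% and 12.4%, TATAAA in 28.3% and 13.6%, and CCAAT in 51.1% and 37.4%. Over the 45 windows of measured enzymes alone the shares were 28.9%, 13.3%, 24.4% and 64.4% in the same motif order, and over the 47 windows of enzymes below the floor they were 19.1%, 4.26%, 31.9% and 38.3%. These matches are strings of letters and were not measured as binding sites.

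**Figure D1:**
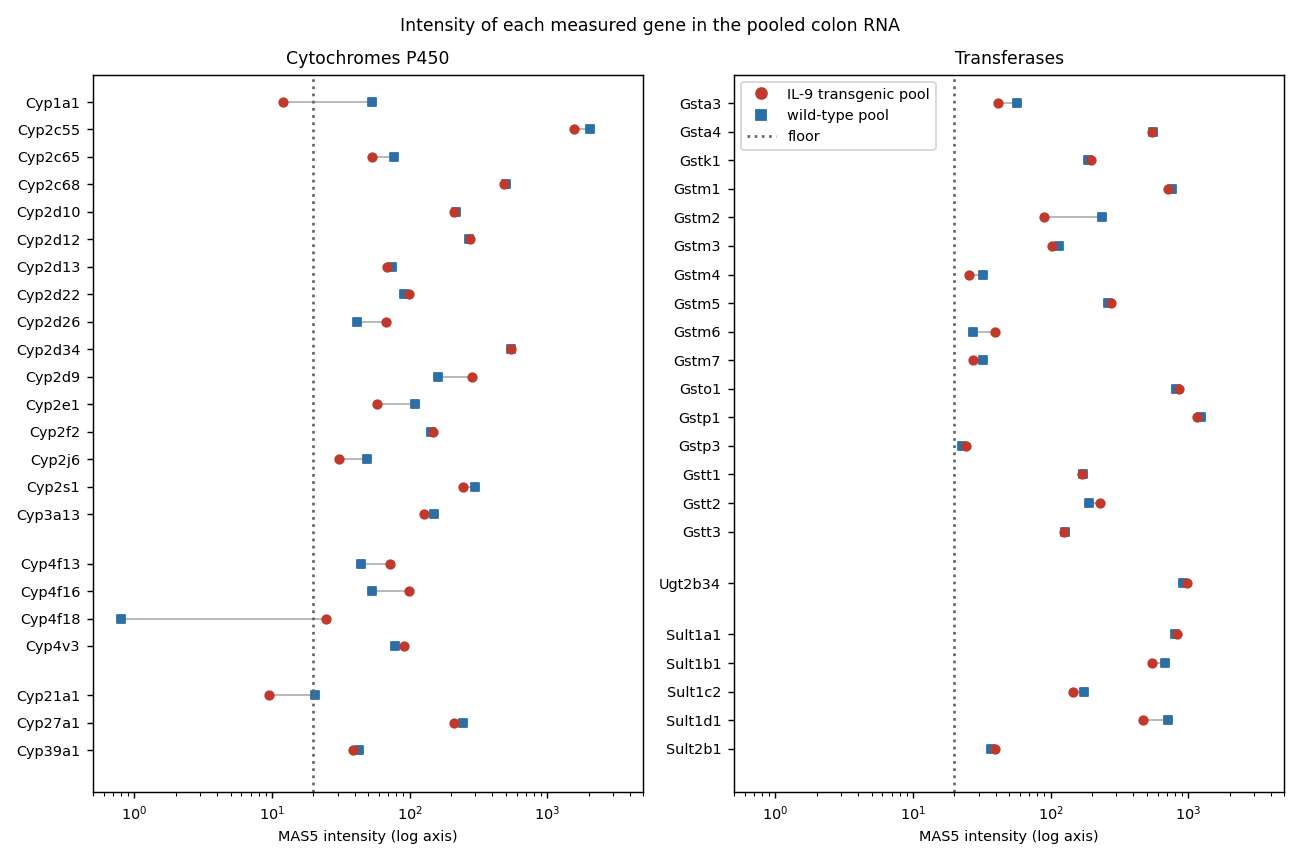
MAS5 intensity (log axis) of each of the 45 measured enzymes in the IL-9 transgenic pool (red circles) and the wild-type pool (blue squares), 1 array each, with the floor of 19.8 as a dotted line. Intensities are drawn before flooring. Most pairs nearly coincide, and Cyp1a1, Gstm2, Cyp21a1 and Cyp2e1 are shifted to lower intensity in the transgenic pool. The Cyp4f18 pair lies farthest apart, higher in the transgenic pool (24.6) and below the floor in the wild-type pool (0.805).

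Which enzymes the distal colon expresses above the floor differed by family. Of 17 glutathione transferase genes 16 were measured (94.1%), against 5 of 11 sulfotransferases (45.5%), 23 of 62 cytochromes P450 (37.1%), 1 of 9 glucuronosyltransferases (11.1%) and 67.3% of all genes. The glucuronosyltransferase count leaves out probe sets shared by several Ugt1a genes. The brightest of these read 1573 in the transgenic pool and 1710 in the wild-type pool, so the count understates that family. Several P450 genes known from liver were below the floor on both arrays, although others, such as Cyp2e1 and Cyp2d9, were measured. Cyp3a11 read 0.254 in the transgenic pool and 2.28 in the wild-type pool, Cyp2b10 6.27 and 8.58, Cyp1a2 0.932 and 7.04, and the bile acid synthesis gene Cyp7a1 5.39 and 6.32, in the same order. The hepatocyte marker Alb, for albumin, was below the floor in both pools as well, and 8 of 11 hepatocyte markers on the array were below it on both arrays. The 3 above the floor were Ttr, Tat and Cps1. They read 184, 67.6 and 33.7 in the transgenic pool and 259, 56.3 and 41.9 in the wild-type pool. Cyp24a1 and Cyp27b1, which inactivate and activate vitamin D, and Cyp1b1, an AhR target expressed outside the liver, were also below the floor on both arrays. Intensity depends on the affinity of each probe set, so it does not rank one gene's transcript against another's.

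Among the xenobiotic families Cyp1 to Cyp3, 16 of 39 genes were measured, with a median log2 ratio of −0.09. Cyp1a1, the classical gene induced through AhR, read 12.0 in the transgenic pool, below the floor, and 53.2 in the wild-type pool, and was at least 2.69-fold lower in transgenic RNA. This call rests on a single probe set with 1 array below the floor. Its neighbour on chromosome 9, Cyp1a2, was below the floor in both pools.

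Cyp2e1, which oxidises ethanol and other small molecules, read 58.4 in the transgenic pool and 109 in the wild-type pool, a log2 ratio of −0.90. Cyp2e1 ranked 38 from the lowest among the 7770 genes measured on both arrays. Cyp2e1 is abundant in liver and fat. Of 7 adipocyte markers on the array 5 were measured, 4 with a negative log2 ratio, and their median was −0.18. Their summed intensity was 896 in the transgenic pool and 1115 in the wild-type pool. By gene, the log2 ratios were Car3 −0.54, Retn −0.21, Fabp4 −0.18, Plin4 −0.09 and Adipoq 0.00. Car3 read 368 in the transgenic pool and 536 in the wild-type pool. Neither Lep nor Cidec exceeded the floor on either array. The part of fat in the Cyp2e1 ratio was not tested. Cyp2j6, an epoxygenase of fatty acids in the gut, read 30.9 in the transgenic pool and 48.8 in the wild-type pool, a log2 ratio of −0.66.

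In the Cyp2c subfamily, whose mouse gut members oxidise arachidonic acid, 3 of 11 genes were measured and all 3 had negative ratios. Cyp2c55, a colon-enriched enzyme, read 1563 in the transgenic pool and 2040 in the wild-type pool, a log2 ratio of −0.38. Cyp2c65 read 53.3 in the transgenic pool and 76.7 in the wild-type pool (−0.52), and Cyp2c68 484 and 498 (−0.04) in the same order. The only Cyp2c65 probe set is of a kind that may bind several transcripts. Cyp2c55 also stands in a marker list of proximal colon, in which 3 of 4 genes were measured. Besides Cyp2c55 itself, these were Hoxb9 (−0.53), at 26.2 in the transgenic pool and 37.9 in the wild-type pool, and Car1 (−0.26). Car1 is also an absorptive colonocyte marker. Of 17 measured markers of that type 9 had positive and 8 negative ratios, with a median of 0.03. Among 4 measured distal colon markers, Retnlb read 4314 in the transgenic pool and 2153 in the wild-type pool, and the log2 ratios of the others were Hoxd13 0.00, Hoxa13 −0.22 and Insl5 −0.43. Retnlb is also a goblet cell marker, and 8 of 9 goblet cell markers were positive, with a median of 0.30 and a summed intensity of 26705 in the transgenic pool and 20235 in the wild-type pool. The part of the position of the sampled piece in the Cyp2c55 ratio was not tested.

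The Cyp2d subfamily, the mouse counterpart of the human drug-metabolising enzyme CYP2D6, was measured for 7 of 7 genes and was uneven. Cyp2d9, a steroid hydroxylase of male mouse liver, read 284 in the transgenic pool and 160 in the wild-type pool, a log2 ratio of 0.82. Cyp2d26 read 67.9 in the transgenic pool and 41.8 in the wild-type pool, a log2 ratio of 0.70. By their brightest probe sets the other 5 genes lay between −0.13 and 0.11, among them Cyp2d34 at 549 in the transgenic pool and 542 in the wild-type pool. A dimmer Cyp2d13 probe set read 49.4 in the transgenic pool and 64.2 in the wild-type pool (−0.38). Cyp2d13 is annotated as a transcribed pseudogene in RefSeq. Sequences in this tandem cluster on chromosome 15 are similar to each other, and whether probe sets read transcripts of neighbouring Cyp2d genes was not tested.

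The remaining measured genes of these families had small negative or near-zero ratios. Cyp2s1, an epithelial enzyme outside the liver, read 246 in the transgenic pool and 297 in the wild-type pool (log2 ratio −0.27), and Cyp3a13, a Cyp3a enzyme of intestine, 127 and 151 (−0.25) in the same order. Cyp2f2, known for activating naphthalene in mouse lung, read 148 in the transgenic pool and 144 in the wild-type pool (0.03).

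Cyp4 enzymes hydroxylate the ends of fatty acids and eicosanoids. Of 10 genes 4 were measured, 1 of them, Cyp4f18, as a bound. By their brightest probe sets all had positive log2 ratios, with a median of 0.51 that includes the bound. Cyp4f16 read 99.6 in the transgenic pool and 52.9 in the wild-type pool, a log2 ratio of 0.91. Its second probe set read 35.6 in the transgenic pool and 38.8 in the wild-type pool, a log2 ratio of −0.12, so the probe sets disagree. Cyp4f13, the other measured gene of the Cyp4f cluster on chromosome 17, read 72.2 in the transgenic pool and 44.3 in the wild-type pool, a log2 ratio of 0.71. Cyp4f14 and Cyp4f15, which lie between them, were below the floor on both arrays.

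Cyp4f18, which inactivates leukotrienes in mouse leukocytes, read 24.6 in the transgenic pool and 0.805, below the floor, in the wild-type pool, at least 1.24-fold higher. Of the B cell markers, 6 of 6 were higher in the transgenic pool, with log2 ratios from 0.87 to 3.19 and a summed intensity of 977 in the transgenic pool and 232 in the wild-type pool. Of 8 measured macrophage markers 6 were positive, with a median of 0.22 and a summed intensity of 1449 in the transgenic pool and 1274 in the wild-type pool. Mast cell markers were positive in 7 of 7 measured cases, 5 of them bounds, with a median of 2.31 and a list sum of 3320 in the transgenic pool and 202 in the wild-type pool. The part of leukocytes in the Cyp4f ratios was not tested. Cyp4v3, a fatty acid hydroxylase, had log2 ratios of 0.20 and −0.35 from its 2 probe sets, and −0.08 as their mean.

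**Figure D2:**
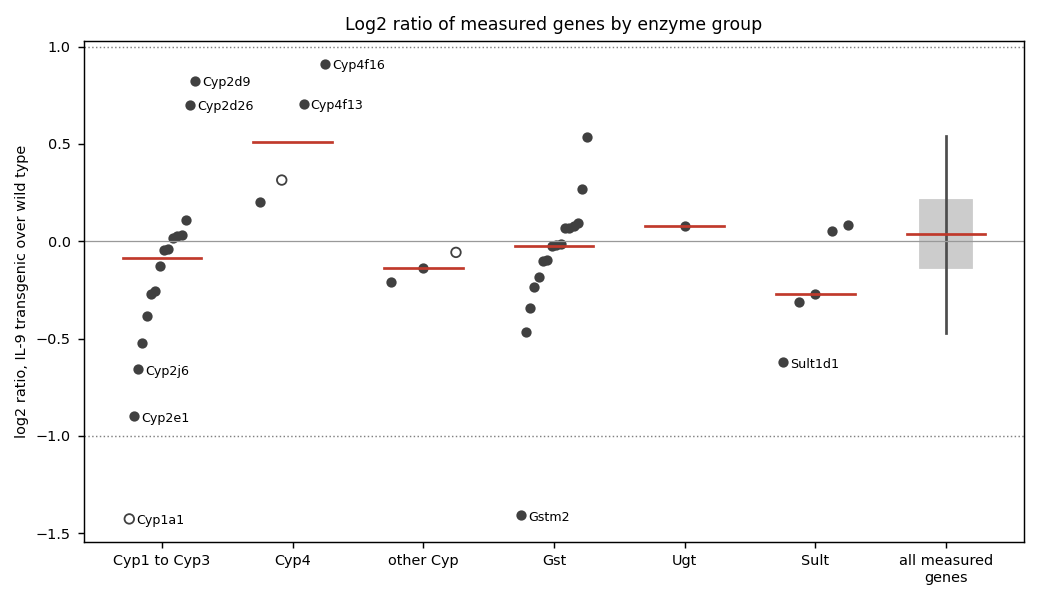
Log2 ratio of IL-9 transgenic over wild type for each measured enzyme (points; open points are bounds), by group, with group medians as red lines and dotted lines at 2-fold. The box and whisker at the right give the middle 50% and the middle 90% of all measured genes, and Gstm2 and Cyp1a1 lie beyond 2-fold.

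Of the 13 other P450 genes, which act on sterols, steroids, bile acids, retinoids and vitamin D, 3 were measured and none reached a log2 ratio of 0.58 in size. Cyp27a1, a mitochondrial sterol side-chain hydroxylase, read 210 in the transgenic pool and 243 in the wild-type pool (−0.21). Cyp39a1, an oxysterol hydroxylase, had a log2 ratio of −0.14. The adrenal gene Cyp21a1 was just above the floor in the wild-type pool, at 20.6, and read 9.59 in the transgenic pool. The other steroidogenic genes Cyp11a1, Cyp11b2 and Cyp17a1 were below the floor on both arrays.

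Glutathione transferases had ratios near 0, with 1 exception past 2-fold. The median log2 ratio of 16 measured genes was −0.02, and 15 of them lay between −0.46 and 0.53. Gstm2, of the mu class, read 89.1 in the transgenic pool and 236 in the wild-type pool, 2.65-fold lower, and ranked 8 from the lowest among the 7770 genes measured on both arrays. It has a single probe set on this array. The gene lies in a run of 7 Gstm genes on chromosome 3 with no other protein-coding gene between them in RefSeq.

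The brightest probe sets of its neighbours had ratios nearer 0. Gstm1, on one side, read 711 in the transgenic pool and 760 in the wild-type pool (log2 ratio −0.10), and a pair of its other probe sets gave −0.09 and −0.04. The dimmest Gstm1 probe set read 11.2, below the floor, in the transgenic pool and 35.1 in the wild-type pool, a bound of −0.83 on the log2 scale, so it too was lower. Gstm3, on the other side, had −0.18 by its brighter probe set and 0.47 by its dimmer one. Gstm6 read 39.3 in the transgenic pool and 27.1 in the wild-type pool (0.53), and Gstm4, Gstm5 and Gstm7 had −0.34, 0.07 and −0.24.

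**Figure D3:**
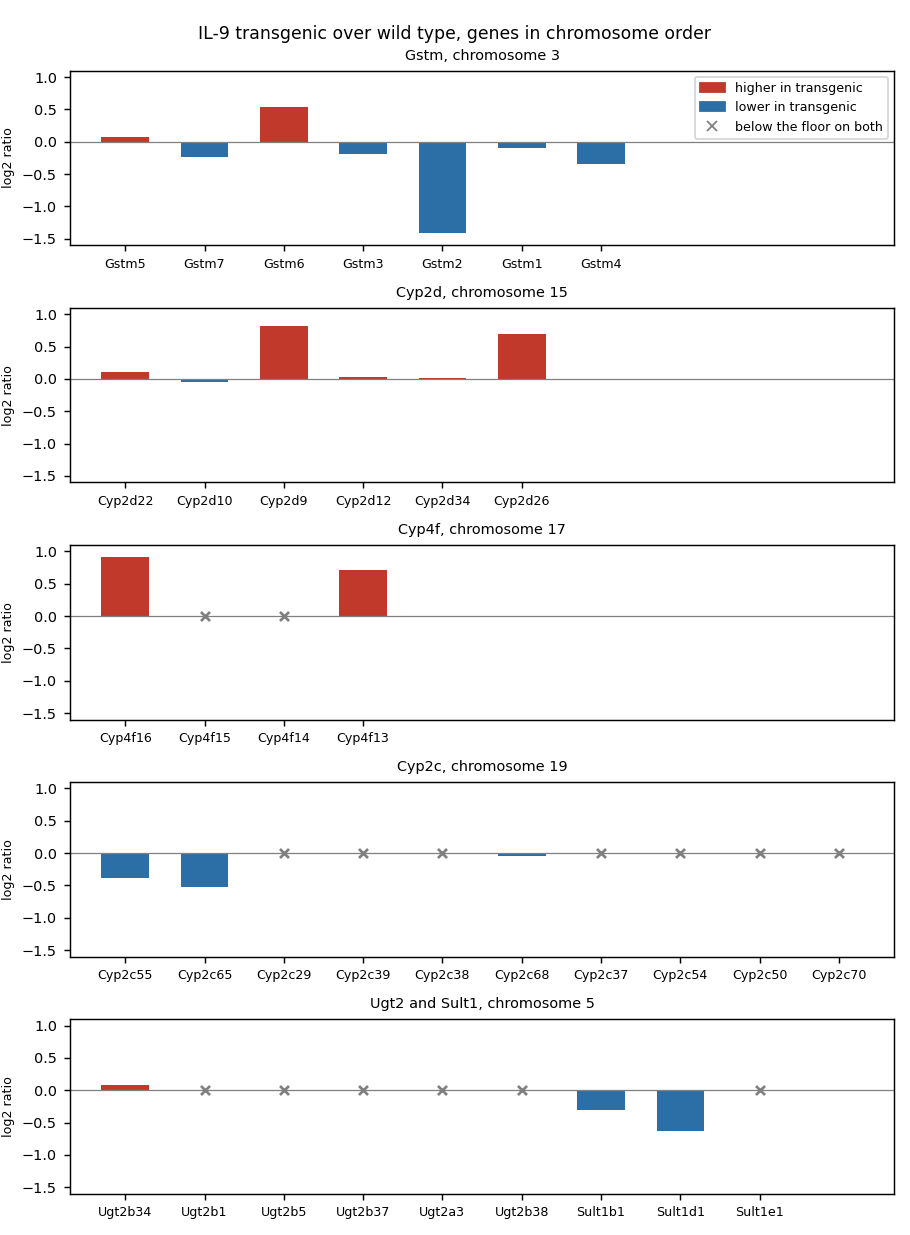
Log2 ratio of IL-9 transgenic over wild type for enzyme genes in 5 gene clusters, drawn in chromosome order from RefSeq; red bars are higher and blue bars lower in the transgenic pool, and crosses mark genes below the floor on both arrays. Gstm2 stands out from its Gstm neighbours at −1.41, and Cyp2d9 and Cyp2d26 from other Cyp2d genes at 0.82 and 0.70.

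Other glutathione transferases had smaller ratios than Gstm2. Gstp1, a pi-class enzyme, read 1156 in the transgenic pool and 1240 in the wild-type pool (log2 ratio −0.10). Gsta4, which conjugates aldehydes from lipid peroxidation, read 543 in the transgenic pool and 550 in the wild-type pool (−0.02), and Gsta3, of the alpha class, 41.3 and 57.0 (−0.46) in the same order. Gsto1, an omega-class enzyme that reduces dehydroascorbate, read 861 in the transgenic pool and 817 in the wild-type pool (0.08), but its second probe set read 419 and 595 (−0.51) in that order. Gstk1 and the theta-class genes Gstt1, Gstt2 and Gstt3 had log2 ratios of 0.07, −0.03, 0.27 and −0.01, and Gstp3 had 0.10. Gsta2 was below the floor in both pools, at 0.858 in the transgenic pool and 14.4 in the wild-type pool.

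The only measured glucuronosyltransferase under the single-symbol rule was Ugt2b34, with 2 probe sets. The brighter read 973 in the transgenic pool and 921 in the wild-type pool (log2 ratio 0.08), and the other 919 and 813 (0.18) in the same order. Ugt2b5, a glucuronosyltransferase abundant in mouse liver, was below the floor on both arrays. The Ugt1a genes share most of their exons, and the 3 probe sets that carry several Ugt1a symbols fall outside the rule.

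Sulfotransferases had the lowest median of the transferase families, −0.27 over 5 genes. Sult1d1, which sulfates catecholamines in mice, read 466 in the transgenic pool and 717 in the wild-type pool (log2 ratio −0.62). Its second probe set read 248 in the transgenic pool and 312 in the wild-type pool (−0.33), so both were lower. Sult1b1, the next gene on chromosome 5 and a sulfotransferase of phenols and thyroid hormones in the gut, read 548 in the transgenic pool and 681 in the wild-type pool (−0.31). Sult1c2 read 145 in the transgenic pool and 174 in the wild-type pool (−0.27). Sult1a1, the main phenol sulfotransferase, read 832 in the transgenic pool and 803 in the wild-type pool (0.05), and Sult2b1, for sterols, 39.5 and 37.2 (0.08) in the same order.

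Ratios scatter more at low intensity, so each enzyme was also set against all genes of like intensity, a comparison added after the values were seen. Among genes with a geometric mean intensity of 500 or more, the 5th and 95th percentiles of the log2 ratio were −0.30 and 0.35, and among those from 50 to 100 they were −0.48 and 0.58. Of the 42 enzymes measured on both arrays 7 (16.7%) lay below the 5th percentile of their intensity band and 4 (9.52%) above the 95th, against 5.02% on each side over all 7770 genes. The 7 were Gstm2, Cyp2e1, Cyp2j6, Sult1d1, Cyp2c65, Cyp2c55 and Sult1b1, and the 4 were Cyp4f16, Cyp2d9, Cyp4f13 and Cyp2d26. Cyp2c55, Sult1d1 and Sult1b1 were in the band of 500 or more, where Sult1b1 was just beyond the limit.

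Probe sets of a gene give a technical yardstick. In 2847 genes, more than 1 probe set exceeded the floor in both pools, and log2 ratios within a gene had a pooled SD of 0.28. For the 9 enzymes among them the SD was 0.34. Of the 9 enzymes past 0.58 on the log2 scale, Sult1d1 and Cyp4f16 have a second measured probe set, and only that of Sult1d1 has the same sign. This yardstick holds no spread between animals.

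**Figure D4:**
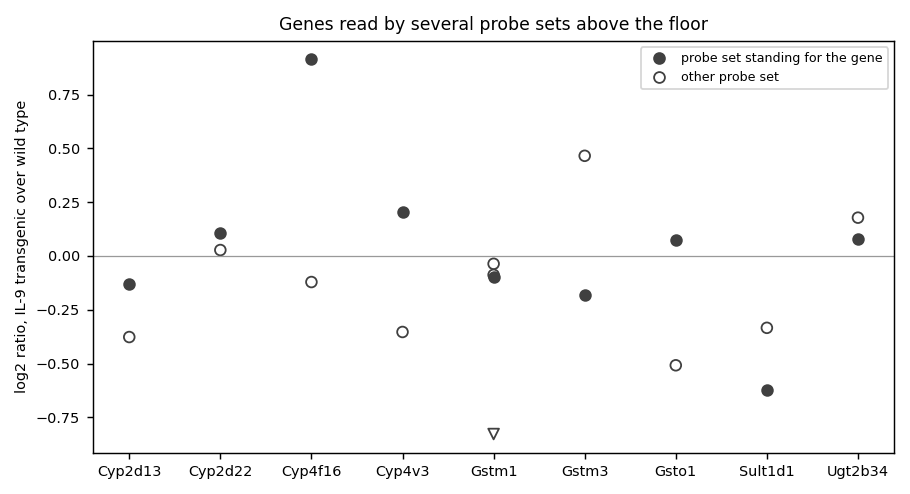
Log2 ratio of IL-9 transgenic over wild type for each probe set above the floor, for the 9 enzymes with several; filled points stand for the gene, open points are its other probe sets and the triangle is a bound. The probe sets of Cyp4f16, Cyp4v3, Gstm3 and Gsto1 lie on opposite sides of 0.

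The partners of these enzymes were set beside them from fixed lists. Over all measured genes, for comparison with each list, 56.0% had positive log2 ratios, 0.767% were at least 2-fold higher and 0.611% lower. Of 30 measured electron donors and other phase I enzymes, 15 had positive and 15 negative log2 ratios, 0 reached 2-fold and the median was 0.00. Nqo2, a quinone reductase, read 60.2 in the transgenic pool and 36.0 in the wild-type pool (0.74). Ephx2, which hydrolyses the epoxides that Cyp2c and Cyp2j enzymes make, read 75.4 in the transgenic pool and 117 in the wild-type pool (−0.63). The alcohol dehydrogenase gene Adh7 read 7.52, below the floor, in the transgenic pool and 32.3 in the wild-type pool, at least 1.63-fold lower. The flavin monooxygenase gene Fmo4 read 21.3, near the floor, in the transgenic pool and 32.1 in the wild-type pool (−0.59). The bright genes Adh1 and Akr1a1 had 0.02 and −0.02, with the other Akr1a1 probe sets between 0.10 and 0.13.

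Of 16 measured genes for other conjugation and cofactor supply, 6 were positive and 10 negative, 0 reached 2-fold and the median was −0.03. Ugdh, which makes the glucuronic acid donor, read 644 in the transgenic pool and 819 in the wild-type pool (−0.35). Gclc, which limits glutathione synthesis, had 0.26 and 0.30 from its 2 probe sets, and the microsomal transferases Mgst2 and Mgst3 had 0.22 and −0.03. The methyltransferase gene Inmt read 23.3, near the floor, in the transgenic pool and 35.9 in the wild-type pool (−0.62). Of 5 measured efflux transporters 1 was lower by 2-fold or more, Abcc5, at 37.0 in the transgenic pool and 79.8 in the wild-type pool (−1.11), but its other probe sets above the floor gave −0.37, 0.09 and a bound of 0.05. Abcb1a, which encodes the multidrug pump P-glycoprotein, had −0.30 and −0.88 from its 2 probe sets. Abcg2, which exports sulfate conjugates and many drugs, read 182 in the transgenic pool and 249 in the wild-type pool (−0.45), and Abcc3, of the basolateral membrane, had 0.30.

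The genes of the sensors that switch these enzymes on had ratios near 0 in most cases. Of 19 measured regulators 11 were positive and 8 negative, 0 reached 2-fold and the median was 0.01. Named for their role after the values were seen, Ahr read 143 in the transgenic pool and 133 in the wild-type pool (0.10), the pregnane X receptor gene Nr1i2 53.0 and 52.6 (0.01) and the NRF2 gene Nfe2l2 340 and 343 (−0.01), in the same order. A dimmer Ahr probe set read 25.4 in the transgenic pool and 19.3, below the floor, in the wild-type pool, a bound of 0.36, and a dimmer Nr1i2 probe set had −0.12. Arnt, the DNA-binding partner of AhR, read 38.7 in the transgenic pool and 23.1, near the floor, in the wild-type pool (0.74). A second Arnt probe set was below the floor in both pools, at 7.69 and 10.1 in the same order. Pparg had 0.57 and Rxrb −0.46. Bach1 had 0.50, and its second probe set −0.09. Hnf4a and Vdr, for regulators of epithelial genes, had 0.01 and 0.03 by their brightest probe sets, and the other Hnf4a probe sets ranged from −0.81 to 0.16 and the other Vdr one had −0.12.

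Targets of these sensors had ratios of both signs. Of 3 measured AhR targets, Cyp1a1 was lower, Tiparp had −0.09 with its other probe sets at −0.30 and 0.95, and Nqo1 had 0.28. Of 15 measured NRF2 targets, some of them transferases described above, 9 were positive (60%, against 56.0% over all measured genes) and 6 negative. Their median was 0.15, against 0.04 over all measured genes, and 0 reached 2-fold. Cbr3, Ephx1 and Pgd had 0.34, 0.32 and 0.30, with 1 of the 3 other Pgd probe sets at −0.17, and the transferases Gsta3, Gstm1 and Gsta4 had −0.46, −0.10 and −0.02.

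**Figure D5:**
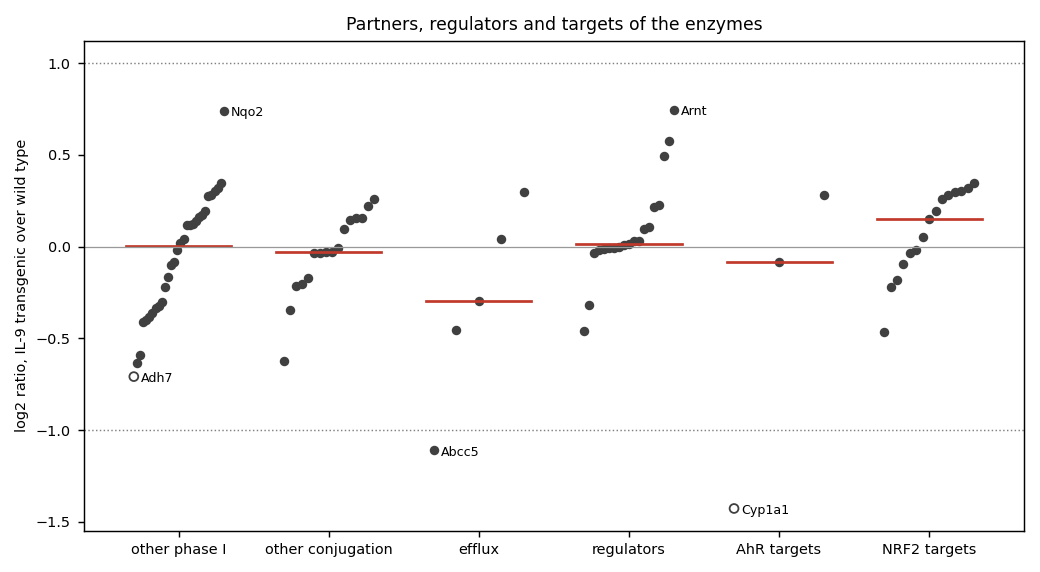
Log2 ratio of IL-9 transgenic over wild type for measured genes of 6 fixed lists of partners, regulators and targets (points; open points are bounds), with list medians as red lines and dotted lines at 2-fold. Abcc5 and Cyp1a1 lie below −1, and the list medians lie between −0.30 and 0.15.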

How the data were processed

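Pooled colon RNA was hybridised to Affymetrix arrays, 1 per genotype. The deposited table holds 1 linear intensity per probe set and array, made by the authors with MAS5, per the submitters' processing notes, with no version given in the sources used here. MAS5 subtracts background and mismatch signal, so ratios of low values are unstable. Detection calls were not used here. Of 22626 non-control probe sets, the platform annotation gave 1 symbol to 20380, several to 691 and none to 1555. All 123 enzyme probe sets matched RefSeq genes of GRCm38.p6, which changed 0 symbols.

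The brightest probe set stood for its gene. Values were floored at 19.8 and log2 ratios taken without further scaling (Python 3.11.15, pandas 2.3.3, statsmodels 0.14.6). With 1 array per group no test was possible, and the number of arrays limits precision. The procedure was tested on simulated data, with only genes above the floor on both arrays scored. The simulated differences were larger than any enzyme ratio under the floor used above. The test therefore does not cover smaller differences or bounds.

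Every measured enzyme could be named, with full values at a log2 ratio of 0.58 in size or among the 4 brightest of its group. In each list the 4 largest ratios and 2 brightest genes were named. The members and lists were chosen with earlier results of these data known. The alternatives were median scaling, quantile normalization, loess (span 0.3), floors at the 20th and 60th percentiles, no floor with a pseudocount of 0.399, the mean of all probe sets, and leaving out probe sets that may bind several transcripts.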

Additional observations from a re-analysis of the deposited data

How the results depend on the processing

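Cyp1a1 and Gstm2 were at least 2-fold lower, and no enzyme at least 2-fold higher, under median scaling, quantile normalization, loess, the mean of all probe sets and without probe sets that may bind several transcripts. With the mean of all probe sets, 55 genes of all were at least 2-fold higher and 41 lower, against 64 and 51. With a floor at the 20th percentile 69 enzymes were measured, 2 were at least 2-fold higher and 7 lower, and over all genes 202 were higher and 258 lower. With no floor 99 entered, 6 higher and 19 lower, and over all genes 725 and 893. With a floor at the 60th percentile Gstm2 was the 1 lower enzyme, and over all genes 29 were higher and 27 lower. The calls gained under lower floors are for genes that were below or within 1.5-fold of the floor used above on both arrays. With the lower floor Cyp4f18 had a log2 ratio of 2.14 and Cyp21a1 −1.10, and with none they had 4.38 and −1.07. With the floor at the 20th percentile the median log2 ratio was −0.16 for P450 genes, against −0.04 with the floor used above, and −0.03 for Ugt genes, against 0.08, a change of sign. Of the 9 enzymes past 0.58 on the log2 scale, Cyp4f16 (0.40) and Sult1d1 (−0.48) were inside it as means of their probe sets. With the floor at the 60th percentile Cyp2d26 (0.30) and Cyp4f13 (0.39) were inside it, and Cyp1a1 and Cyp2j6 were not measured. No paired analysis was possible because each group is 1 array.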

Other observations

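Probe sets that the annotation gives to several genes fall outside the rule. Of 9 such probe sets that include an enzyme of these families, 5 exceeded the floor and 0 reached 2-fold. The 3 probe sets of the Ugt1a locus, whose products conjugate bilirubin, phenols and many drugs, read 1573, 735 and 541 in the transgenic pool, against 1710, 832 and 628 in the wild-type pool, with log2 ratios of −0.12, −0.18 and −0.21. All 3 were lower in the transgenic pool. The spread between probe sets of a gene does not measure a shift that they share, and the spread between animals is not known. A probe set shared by Cyp4f genes read 166 in the transgenic pool and 143 in the wild-type pool, a log2 ratio of 0.21. A probe set shared by Gsta genes and another gene read 122 in the transgenic pool and 113 in the wild-type pool, a log2 ratio of 0.11.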
